A study of Arabidopsis thaliana with 6 samples.

Results

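This account covers 46 genes of Arabidopsis thaliana, called regulators here, that were chosen by the words of their deposited short description. It names a MYB, bHLH or helix-loop-helix, homeobox or homeodomain, B-box, GATA, TCP, squamosa, AGAMOUS or MADS, or bZIP protein. The 46 are among the 1537 genes in the table. The same words match 55 genes, and 9 of these (MYB12, TT8, MYB90, PRE1, PRE5, LHY, SPL3, FLC and SEP1) are left out of the set by their gene IDs. The libraries come from whole seedlings 10 days old of the Columbia ecotype, raised on 1/2 MS plates in long days. The wild type (Col-0) has 3 libraries and the BIC1-YFP line has 3, which the labels call biological replicates. BIC1 is a nuclear protein that inhibits cryptochrome, a receptor of blue light, and the title of the series names it as a coactivator of brassinosteroid signalling and plant growth. What promoter drives BIC1-YFP, how many lines were used and at what hour seedlings were harvested is unknown (not given in the sources used here). BIC1 (AT3G52740) itself stood at 409, 351 and 259.8 units in the wild type and at 16272, 14597 and 21868 in BIC1-YFP.

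Transcription factors of these families bind short DNA words and turn genes on or off. In seedlings, B-box proteins and bHLH proteins of the PIF type set how far stems elongate in light and dark, MYB-like proteins of the LUX and REVEILLE type run the circadian clock, and R2R3 MYB proteins control pigments, cuticle and stress responses. Brassinosteroid is a growth hormone whose signal reaches the nucleus through BZR1 and BES1, which act together with several of these families. TCP proteins control branching and organ growth, and MADS and SPL proteins control flowering.

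The values are abundances in normalized units that the authors deposited. The depth of the libraries is unknown. Nearly all low values lie close to whole numbers in some libraries, which a division by gene length would not give, so levels are compared between libraries and never between genes. Every gene in the table had been selected by the authors as different between the genotypes in these same 6 libraries. The calls below therefore rest on genes chosen for differing, and they are not independent evidence of a difference. A gene was called, and is said to have risen or fallen, at a limma adjusted p under 0.05 on the scale log2(abundance + 1), adjusted over the 1531 genes tested.

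Of the 46 regulators, 28 had a higher mean in BIC1-YFP (60.9%, against 52.6% of all listed genes) and 18 a lower one (39.1%, against 47.4%). All 46 passed the filter on low values, 24 rose, 13 fell and 9 did not pass. TCP12 and BHLH92 among the 24, and TCP1 among the 13, reached 1 unit in 1 genotype only, so they passed the filter through the genotype in which they are high and had to differ. The called share of 80.4% stands beside 76.6% of all tested genes, so being called is no property of the set. The share that rose was 52.2%, against 37.6% of all tested genes, and the share that fell was 28.3%, against 39.1%. The signed median log2 fold change was 0.65, against 0.56 over all tested genes. No listed gene has a deposited log2 fold change under 0.586 in size, so this median mainly shows which direction holds more genes. Among the higher genes the median was 1.02, against 0.91 of all tested, and among the lower -0.90, against -0.89. The median size without regard to sign was 0.92, against 0.90. For 37 of the 46 (80.4%) every library of one genotype lay above every library of the other, as for 76.0% of all tested genes; 23 of these were higher (50.0%, against 37.0%) and 14 lower (30.4%, against 39.0%). The number of tests behind the deposited adjusted p-values was read from 644 genes. In these the deposited log2 fold change is smaller in size than the log2 ratio of the means. Their p-values and adjusted p-values imply at least 21574 tests. When limma's p-values were adjusted over that many, 0 of the 46 passed, against 3.27% of all tested genes. Of the 46, 39 have an unadjusted limma p under 0.05.

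**Figure D1:**
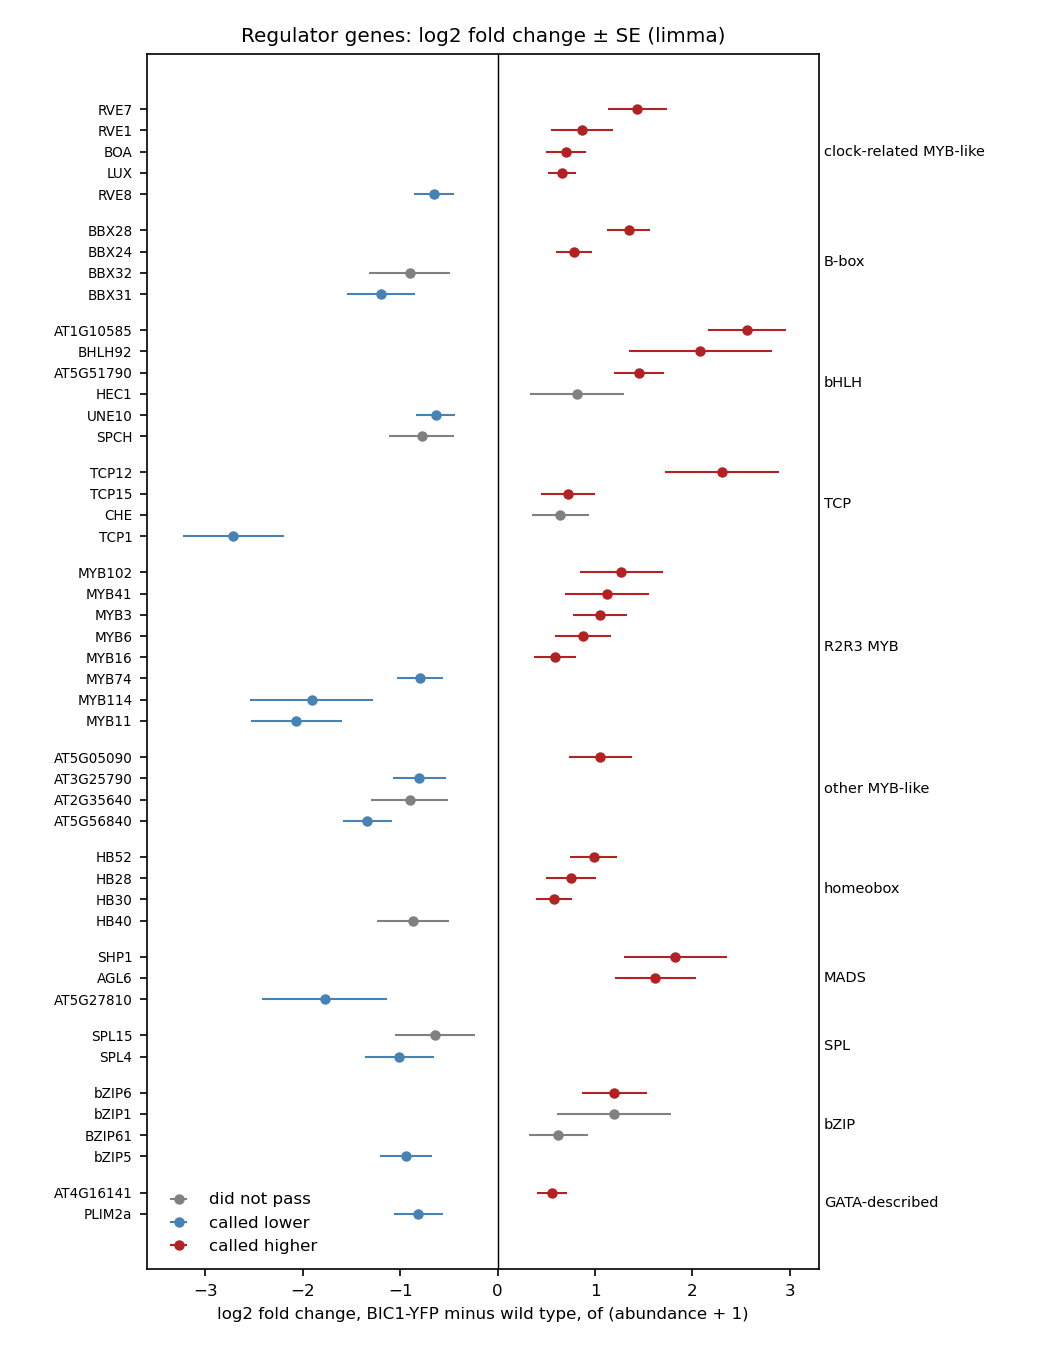
Log2 fold change of each of the 46 regulator genes (x axis, BIC1-YFP minus wild type, of abundance + 1), with limma's standard error as the bar, grouped by family. The points on the right in red are the 24 genes called higher, those on the left in blue the 13 called lower, and the 9 in grey did not pass; TCP1 lies farthest left (-2.71) and AT1G10585 farthest right (2.56), an order that depends on the pseudocount of 1.

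The labels of the families were checked against the domains named in the full descriptions. The 7 genes described as homeodomain-like all carry a Myb domain and none a homeobox, so they are treated as MYB-like. The 4 described as homeobox proteins include 2 of the zinc finger homeodomain class. Of the 2 described as GATA zinc fingers, PLIM2a carries a LIM domain, which belongs to actin-binding proteins.

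Clock regulators of the MYB type moved in opposite directions. Of 5 genes, 4 rose (LUX, BOA, RVE7 and RVE1) and RVE8 fell. These counts and those of the families below stand beside 76.6% of all tested genes called, 37.6% higher and 39.1% lower. With so few genes in each, being called is not read as a property of a family. LUX (AT3G46640, also PCL1) binds DNA for the evening complex, which represses PIF4 and PIF5 in the evening. It was at 754, 781 and 904 units in the wild type and at 1233, 1304 and 1310.5 in BIC1-YFP. Every BIC1-YFP library lay above every wild-type library, and the mean was 1.58-fold higher (0.66 ± 0.14 SE on the log2 scale, limma's adjusted p 0.012). BOA (AT5G59570), the closest relative of LUX, was at 244, 270.2 and 312 units in the wild type against 352, 494 and 509 in BIC1-YFP. It was 1.64-fold higher (0.70 ± 0.21 SE on the log2 scale, limma's adjusted p 0.024) with no overlap between the genotypes.

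The REVEILLE genes encode MYB-like relatives of the morning factors CCA1 and LHY. RVE7 (AT1G18330), also named EPR1 for its early response to phytochrome, showed the largest change of the clock group. Its libraries were at 108, 94.8 and 181 in the wild type and 278, 305 and 442 in BIC1-YFP, 2.67-fold higher on average (1.44 ± 0.30 SE on the log2 scale, limma's adjusted p 0.012). RVE1 (AT5G17300), which links the clock to auxin production, was at 274, 406 and 505 in the wild type against 494, 699 and 988 in BIC1-YFP. It was called (0.87 ± 0.32 SE on the log2 scale, limma's adjusted p 0.042), but the lowest BIC1-YFP library lay below the highest wild-type library. RVE8 (AT3G09600), an activator of evening genes, went down, from 327, 295 and 313 to 185, 165 and 253. Its genotypes did not overlap, and it was 1.55-fold lower (-0.65 ± 0.21 SE on the log2 scale, limma's adjusted p 0.028). CHE (AT5G08330, TCP11 in the RefSeq annotation), a TCP protein that represses CCA1, stood at 533, 809 and 1061 units in the wild type against 1001, 1094 and 1597 in BIC1-YFP and did not pass (limma, adjusted p = 0.075).

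**Figure D2:**
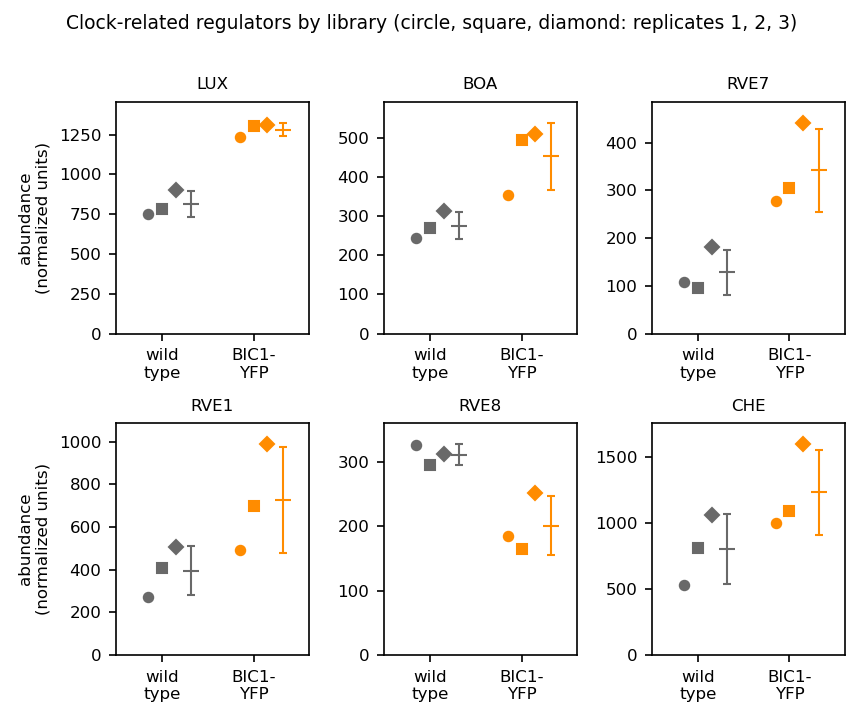
Abundance (y axis, normalized units, from 0) of 6 clock-related regulators in each library of the wild type (grey) and BIC1-YFP (orange), with the mean and SD of 3 libraries beside the points. LUX, BOA and RVE7 lie higher in every BIC1-YFP library than in any wild-type library and RVE8 lies lower, whereas RVE1 and CHE overlap; replicate 3 (diamond) is the highest library of both genotypes for LUX, BOA, RVE7, RVE1 and CHE.

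The clock calls differed in how far they depended on 1 library. Replicate 3 was the highest library of both genotypes for 5 of these 6 genes, all but RVE8, against 32.6% of the 46 regulators and 24.9% of all listed genes. CHE passed with both libraries numbered 3 left out (limma, adjusted p = 0.048) and with the replicate number as a block (limma, adjusted p = 0.0053). Why replicate 3 was the highest was not tested. LUX and RVE7 were called without any 1 of the 6 libraries (limma, adjusted p up to 0.047 and 0.039). RVE1 and BOA were no longer called without replicate 1 or 2 of the wild type or replicate 2 or 3 of BIC1-YFP (limma's adjusted p then between 0.061 and 0.12), and RVE8 without replicate 1 or 2 of the wild type or replicate 1 or 2 of BIC1-YFP (limma's adjusted p then between 0.060 and 0.088). RVE1 also missed the threshold with limma without trend (adjusted p = 0.058). CHE passed without wild-type replicate 3, its highest wild-type library (limma, adjusted p = 0.032). Of the 12 clock MYB genes on the list used, 6 were in the table; the sixth, the morning gene LHY (AT1G01060), is not in the set and fell from 229.7, 203 and 249 to 63.1, 71.3 and 96.9 units. CCA1 was not among the listed genes.

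The upstream sequences of 4 rising genes are shown because they are the members that hold the core of the evening element, AAATATCT, a word known to be bound by MYB-like clock proteins. The windows are the 250 bases before the annotated gene start in RefSeq's TAIR10.1 annotation, read 5′ to 3′ on the gene's strand, with capitals marking the evening element core, the G-box CACGTG and the word CGTGTG on either strand. RVE1, a clock gene that rose and holds a G-box but no evening element core, is shown beside them. In BOA the G-box and CGTGTG overlap in 1 run of capitals. The windows are chr3:17182792-17183041 on the plus strand for LUX, chr5:24003638-24003887 on the plus strand for BOA, chr1:6308244-6308493 on the minus strand for RVE7, chr1:1829984-1830233 on the minus strand for BBX24 and chr5:5692993-5693242 on the minus strand for RVE1.
LUX: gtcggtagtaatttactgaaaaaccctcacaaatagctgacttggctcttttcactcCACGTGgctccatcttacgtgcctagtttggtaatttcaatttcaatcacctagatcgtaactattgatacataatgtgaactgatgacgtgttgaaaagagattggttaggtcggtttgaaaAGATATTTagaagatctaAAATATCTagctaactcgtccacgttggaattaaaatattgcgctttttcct
BOA: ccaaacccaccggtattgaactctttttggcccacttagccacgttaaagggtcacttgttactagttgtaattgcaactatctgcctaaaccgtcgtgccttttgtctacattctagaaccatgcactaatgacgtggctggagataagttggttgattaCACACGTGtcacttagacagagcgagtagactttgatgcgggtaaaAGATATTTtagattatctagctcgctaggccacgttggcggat
RVE7: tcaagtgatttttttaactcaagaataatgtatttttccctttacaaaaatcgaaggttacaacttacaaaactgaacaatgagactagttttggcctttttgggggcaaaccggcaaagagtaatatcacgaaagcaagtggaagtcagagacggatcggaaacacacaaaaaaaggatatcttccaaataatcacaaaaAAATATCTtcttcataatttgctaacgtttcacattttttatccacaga
BBX24: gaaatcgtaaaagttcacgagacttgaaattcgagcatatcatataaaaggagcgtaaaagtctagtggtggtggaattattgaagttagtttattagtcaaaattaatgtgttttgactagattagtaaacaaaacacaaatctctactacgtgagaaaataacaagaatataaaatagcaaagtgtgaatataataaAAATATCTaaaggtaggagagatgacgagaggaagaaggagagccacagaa
RVE1: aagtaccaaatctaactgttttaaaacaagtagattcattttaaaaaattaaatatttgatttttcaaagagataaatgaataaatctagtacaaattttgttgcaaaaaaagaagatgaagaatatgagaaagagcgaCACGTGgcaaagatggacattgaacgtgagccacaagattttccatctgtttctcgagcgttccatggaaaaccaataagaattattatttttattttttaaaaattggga

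The evening element core was found in 4 of the 46 windows (8.7%), against 4.79% of the 27443 windows of protein-coding genes, and its 4 holders rose. LUX holds it at 2 places, with first bases 70 and 52 bases before the gene start. The G-box, known as a site for bHLH and bZIP proteins, was in 10 windows (21.7%), against 6.49% of all. Of its 10 holders, 6 rose, 2 fell and 2 did not pass. CGTGTG, a form of the brassinosteroid response element to which BZR1 is known to bind, was in 6 windows (13%), against 5.37% of all, with 3 holders that rose, 2 that fell and 1 that did not pass. The other form, CGTGCG, was in none of the 46 and in 1.57% of all. Such matches are descriptions of the letters, not of binding. The shares over the 1537 listed genes were not counted, so an excess over all protein-coding genes is not tied to these families. Of the 46 regulators 52.2% rose and 28.3% fell, and of all tested genes 37.6% and 39.1%. No link between a word and a direction is drawn from so few holders.

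B-box genes also split. B-box proteins carry zinc-binding motifs and act with HY5 and CONSTANS in light signalling and flowering. BBX28 (AT4G27310), which holds back HY5, was at 45.2, 38.3 and 48.6 units in the wild type and at 102, 106 and 133 in BIC1-YFP. The highest wild-type library lay 53.5 units below the lowest BIC1-YFP library, and the mean rose 2.59-fold (1.35 ± 0.22 SE on the log2 scale, limma's adjusted p 0.0057). BBX24 (AT1G06040, also STO), another brake on light development, went from 541, 424 and 379 to 819, 786 and 689. It was 1.71-fold higher with no overlap (0.78 ± 0.18 SE on the log2 scale, limma's adjusted p 0.015). BBX31 (AT3G21890), a small B-box protein that binds CONSTANS, fell from 39.1, 28.0 and 28.4 to 13.0, 19.2 and 9.05. That is 2.31-fold lower with no overlap (-1.20 ± 0.35 SE on the log2 scale, limma's adjusted p 0.023). BBX32 (AT3G21150), which acts with BZR1 in the opening of cotyledons, was at 145, 144 and 58.5 in the wild type against 79.1, 41.9 and 55.2 in BIC1-YFP. Wild-type replicate 3 lay among the BIC1-YFP libraries, and the gene did not pass (limma, adjusted p = 0.078).

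BBX28 kept its call without any 1 library (limma, adjusted p up to 0.024). BBX24 lost it without replicate 2 of BIC1-YFP (limma's adjusted p then 0.052) and BBX31 without replicate 1 or 2 of the wild type or replicate 3 of BIC1-YFP (limma's adjusted p then between 0.051 and 0.068). BBX32 was called without wild-type replicate 3 (limma, adjusted p = 0.018). On the whole list of 32 B-box genes, 7 were in the table, of which 5 rose, 1 fell and 1 did not pass, beside 37.6% of all tested genes that rose. The 3 that the description rule does not reach are relatives of CONSTANS. COL5 (AT5G57660) rose from 111, 91.2 and 165 to 237, 244 and 337 units, and COL2 (AT3G02380) from 73.2, 73.5 and 45.4 to 125, 112 and 124. COL1 (AT5G15850) rose from 350.2, 211 and 318 to 429.6, 387 and 568, a call that was lost without each of the 6 libraries in turn (limma's adjusted p then between 0.050 and 0.13). COL2 was no longer called without replicate 2 of BIC1-YFP (limma's adjusted p then 0.054), and COL5 kept its call. The signed median log2 fold change of the 7 was 0.78, which mainly shows that more of them were higher than lower.

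Of the 4 TCP genes, 2 stood at or near 0 in 1 genotype. TCP1 (AT1G67260), known to promote brassinosteroid synthesis through DWF4, was at 4.01, 8.36 and 5.39 units in the wild type and at 0.000863, 0 and 0.0600 in BIC1-YFP. It was thus low in every wild-type library and at or near 0 in every BIC1-YFP library (-2.71 ± 0.52 SE on the log2 scale, limma's adjusted p 0.0090). TCP12 (AT1G68800, also BRC2), a repressor of branch outgrowth, showed the reverse. It was at 0.00162, 0 and 0.0455 units in the wild type and at 2.00, 4.69 and 6.39 in BIC1-YFP (2.30 ± 0.58 SE on the log2 scale, limma's adjusted p 0.018). No fold is given for either, because 1 genotype was at or near 0, and the size on the log2 scale depends on the pseudocount. TCP1 was at -5.62 with a pseudocount of 0.1 and at -1.10 with 5, where MYB11 was at -1.36. Each reached 1 unit in 1 genotype only and passed the filter on low values through that genotype, so it had to differ. Without 1 library of the genotype in which they were detected neither was tested; without each of the others they kept their calls (limma, adjusted p up to 0.035 for TCP1 and 0.049 for TCP12).

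TCP15 (AT1G69690), which acts in cell proliferation and internode growth, was higher, from 152, 130.1 and 77.3 to 205, 178 and 189 units. It rose 1.59-fold (0.72 ± 0.28 SE on the log2 scale, limma's adjusted p 0.046), with the libraries of the genotypes 26.8 units apart at the nearest. The call did not survive without replicate 2 or 3 of the wild type or replicate 1, 2 or 3 of BIC1-YFP (limma's adjusted p then between 0.070 and 0.1). Of the 24 TCP genes on the list used, these 3 and CHE were in the table, with 2 that rose, 1 that fell and 1 that did not pass. Their signed median log2 fold change was 0.68, which likewise mainly shows that more were higher than lower.

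**Figure D3:**
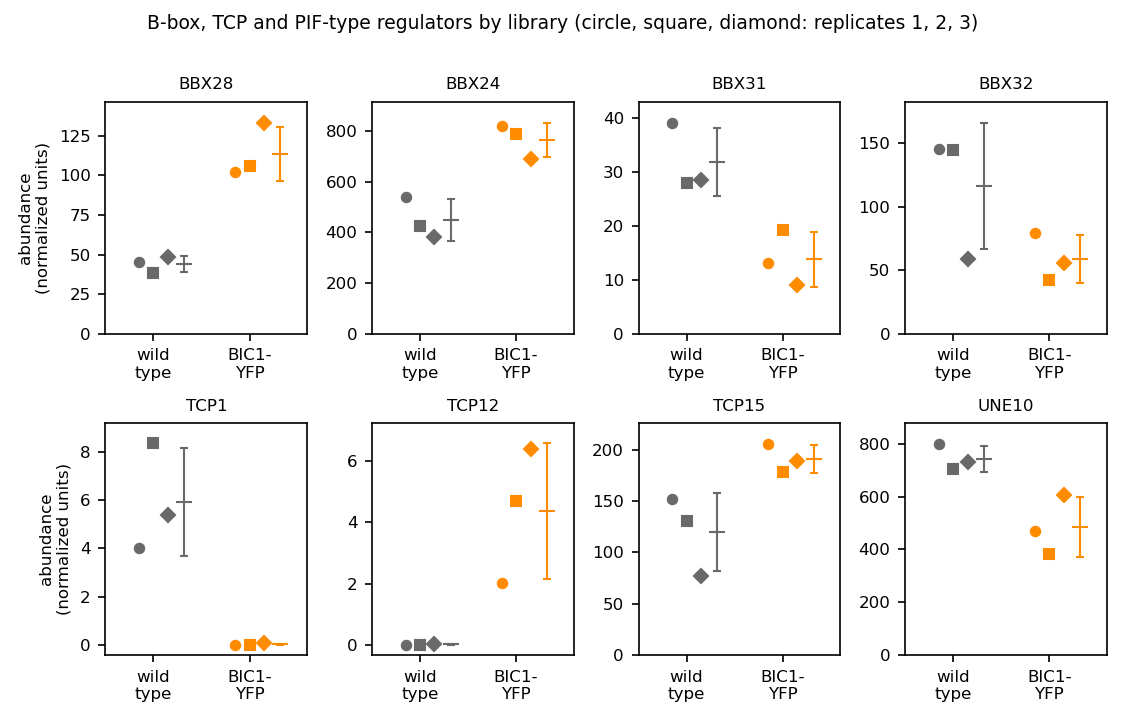
Abundance (y axis, normalized units; 0 is marked on each axis) of 4 B-box genes, 3 TCP genes and UNE10 in each library of the wild type (grey) and BIC1-YFP (orange), with the mean and SD of 3 libraries beside the points. BBX28, BBX24 and TCP15 are higher in every BIC1-YFP library, BBX31 and UNE10 are lower, BBX32 overlaps through its low wild-type replicate 3 (diamond), and TCP1 and TCP12 are at or near 0 in opposite genotypes.

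Among the bHLH genes, 3 rose, 1 fell and 2 did not pass, beside 76.6% of all tested genes called. On the scale log2(abundance + 1) the largest rise of the set was in AT1G10585, a bHLH gene without a symbol in the annotation; with a pseudocount of 0.1 it was at 2.63, below TCP12 (5.14) and BHLH92 (4.78), which are near 0 in the wild type. It was at 12.1, 23.0 and 11.4 units in the wild type and at 65.1, 144 and 82.0 in BIC1-YFP, 6.27-fold higher (2.56 ± 0.40 SE on the log2 scale, limma's adjusted p 0.0051). The log2 fold change that the authors deposited for AT1G10585 was smaller, at 1.52. The lowest BIC1-YFP library was well above the highest wild-type library, although the highest BIC1-YFP library was 2.22-fold the lowest. AT5G51790, likewise without a symbol, had closely grouped wild-type libraries at 24.1, 23.0 and 26.6 and stood at 55.1, 66.4 and 89.4 in BIC1-YFP. It was 2.86-fold higher (1.45 ± 0.26 SE on the log2 scale, limma's adjusted p 0.0074). Both were called without any 1 library (limma, adjusted p up to 0.023 and 0.031).

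UNE10 (AT4G00050, also known as PIF8), a phytochrome-interacting bHLH protein, fell from 799, 703 and 729 to 469.6, 382 and 606 units. It was 1.53-fold lower with no overlap (-0.64 ± 0.20 SE on the log2 scale, limma's adjusted p 0.028), and the call did not survive without replicate 1 or 2 of the wild type or replicate 1 or 2 of BIC1-YFP (limma's adjusted p then between 0.058 and 0.085). SPCH (AT5G53210), which starts the stomatal lineage and is a target of the brassinosteroid kinase BIN2, was at 127, 114 and 74.8 in the wild type against 78.1, 66.9 and 39.9 in BIC1-YFP. The genotypes overlapped and it did not pass (limma, adjusted p = 0.061; 0.034 without wild-type replicate 3). In whole seedlings, fewer cells of a type and less RNA per cell cannot be told apart. HEC1 (AT5G67060), a regulator of the gynoecium and the shoot meristem, varied widely, at 63.2, 35.5 and 93.4 in the wild type against 86.1, 69.7 and 194 in BIC1-YFP, and did not pass (limma, adjusted p = 0.14).

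BHLH92 (AT5G43650), known as a gene of the response to osmotic stress, was at 0.00163, 0 and 0.0457 units in the wild type and at 1.00, 2.77 and 9.50 in BIC1-YFP. It reached 1 unit in BIC1-YFP only and passed the filter through that genotype, so, like TCP1 and TCP12, it had to differ, and its call (2.08 ± 0.74 SE on the log2 scale, limma's adjusted p 0.037) is no evidence of a rise. The call was lost without replicate 1, 2 or 3 of the wild type (limma's adjusted p then between 0.065 and 0.087). Without 1 BIC1-YFP library it was not tested. Of 22 growth-related bHLH and helix-loop-helix genes on a list, UNE10, AIF1 and IBL1 were in the table, with 1 that rose, 1 that fell and 1 that did not pass. That list leaves out PRE1 (AT5G39860) and PRE5 (AT3G28857), small helix-loop-helix promoters of growth that match the description rule but are not in the set. PRE1 rose from 8.03, 9.67 and 1.37 to 42.0, 33.4 and 16.5 units (2.28 ± 0.65 SE on the log2 scale, limma's adjusted p 0.023), and the mean of PRE5 rose 3.80-fold (2.00 ± 0.64 SE on the log2 scale, limma's adjusted p 0.029), both without overlap. PRE1 was no longer called without replicate 1 or 2 of BIC1-YFP (limma's adjusted p then between 0.056 and 0.067), and PRE5 without replicate 2 or 3 of BIC1-YFP (limma's adjusted p then between 0.069 and 0.084). AIF1 (AT3G05800), an atypical bHLH inhibitor of growth, rose from 496, 439 and 362 to 729, 593 and 639.8, and was no longer called without replicate 2 of the wild type or replicate 1, 2 or 3 of BIC1-YFP (limma's adjusted p then between 0.055 and 0.062). AT4G30410, listed as IBL1, was at 106, 138 and 135 in the wild type against 215, 252 and 142 in BIC1-YFP and did not pass (limma, adjusted p = 0.054). No BEE gene, HBI1, IBH1 or other PIF on that list was among the listed genes. PIF4 and PIF5 are left out of the set by their gene IDs, and no values of them are given here. Of 12 core brassinosteroid signalling genes, the phosphatase gene BSU1 (AT1G03445) was in the table, and it fell from 23.1, 27.2 and 27.2 to 12.0, 10.9 and 8.99 units.

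All 8 R2R3 MYB genes passed, 5 higher and 3 lower, beside 76.6% of all tested genes, and for all 8 the libraries did not overlap, beside 76.0%. The 3 that fell include an activator of flavonoid synthesis, MYB11. MYB11 (AT3G62610), an activator of flavonol synthesis, was at 24.1, 13.6 and 11.0 units in the wild type and at 3.01, 1.67 and 4.54 in BIC1-YFP. Even the lowest wild-type library was above the highest BIC1-YFP library, and the mean was 5.28-fold lower (-2.07 ± 0.47 SE on the log2 scale, limma's adjusted p 0.014). The log2 fold change that the authors deposited for MYB11 was smaller in size, at -0.65. MYB114 (AT1G66380), of the anthocyanin-activating MYB group, went from 4.01, 10.2 and 7.56 to 0.00118, 1.76 and 2.27 (-1.91 ± 0.63 SE on the log2 scale, limma's adjusted p 0.031). It lies on chromosome 1 between its near copies MYB113 and MYB90, with which it may share reads. MYB74 (AT4G05100), known from salt stress, fell from 49.2, 42.4 and 43.8 to 30.0, 23.7 and 23.3, 1.76-fold lower with a narrow spread in both genotypes (-0.80 ± 0.24 SE on the log2 scale, limma's adjusted p 0.025).

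The R2R3 MYB genes that rose have other known roles. MYB3 (AT1G22640), a repressor of phenylpropanoid genes, was at 145, 256 and 253 units in the wild type against 355, 460.5 and 519.8 in BIC1-YFP. It was 2.04-fold higher with no overlap (1.05 ± 0.28 SE on the log2 scale, limma's adjusted p 0.019). MYB6 (AT4G09460) went from 173, 272 and 351 to 392, 472 and 558, 1.79-fold higher (limma, adjusted p = 0.030). MYB16 (AT5G15310), a regulator of cuticle formation, rose 1.53-fold, from 218, 194 and 242 to 262, 329.9 and 405 (limma, adjusted p = 0.039). MYB41 (AT4G28110), which promotes suberin, was at 13.0, 8.74 and 12.3 units in the wild type against 14.0, 29.6 and 40.1 in BIC1-YFP. Its lowest BIC1-YFP library was 0.97 units above its highest wild-type library (limma, adjusted p = 0.046). MYB102 (AT4G21440), a gene of the wound and osmotic response, was low in every library, at 4.02, 5.22 and 8.86 in the wild type against 18.0, 10.1 and 19.5 in BIC1-YFP (limma, adjusted p = 0.033).

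**Figure D4:**
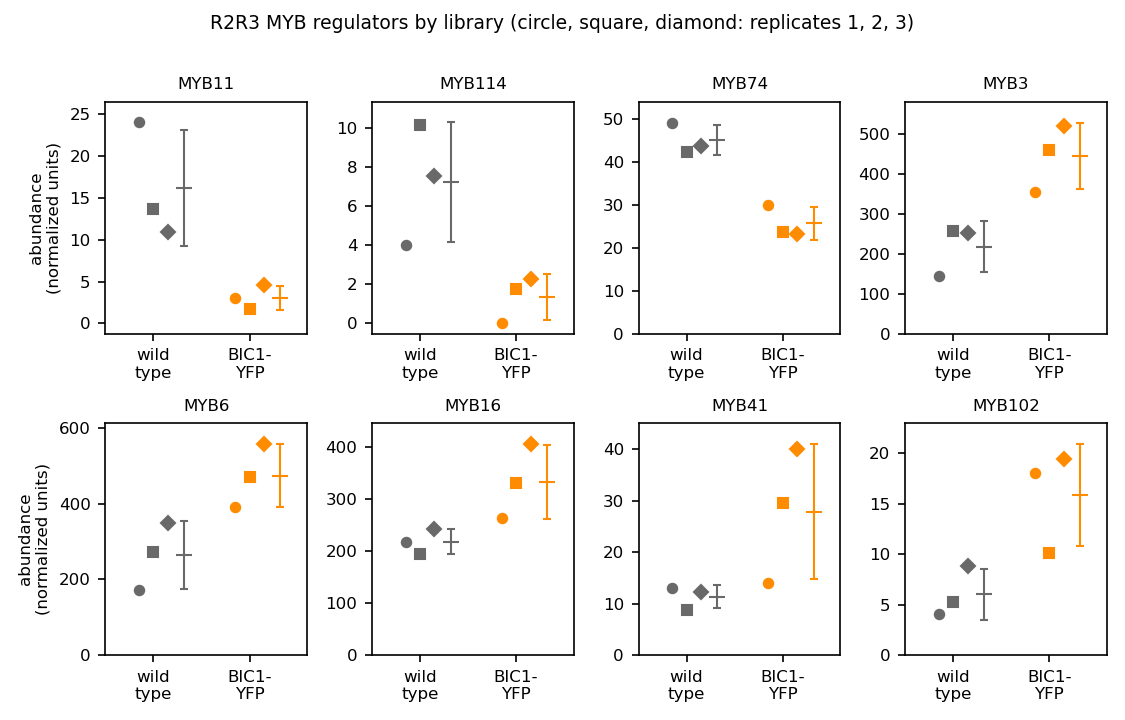
Abundance (y axis, normalized units; 0 is marked on each axis) of the 8 R2R3 MYB genes in each library of the wild type (grey) and BIC1-YFP (orange), with the mean and SD of 3 libraries beside the points. MYB11, MYB114 and MYB74 are lower in every BIC1-YFP library, and MYB3, MYB6, MYB16, MYB41 and MYB102 are higher, with MYB41 replicate 1 of BIC1-YFP (circle) close to the wild type.

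MYB11, alone among the 8, was called without any 1 of the 6 libraries (limma, adjusted p up to 0.046). MYB3 was no longer called without replicate 2 of BIC1-YFP (limma's adjusted p then 0.059). MYB6, MYB16 and MYB74 lost their calls without replicate 1 or 2 of the wild type or replicate 2 or 3 of BIC1-YFP (limma's adjusted p then between 0.056 and 0.12). The call of MYB102 was lost without replicate 1 or 2 of the wild type or replicate 1, 2 or 3 of BIC1-YFP (limma's adjusted p then between 0.050 and 0.1), that of MYB41 without replicate 1, 2 or 3 of the wild type or replicate 2 or 3 of BIC1-YFP (limma's adjusted p then between 0.065 and 0.15) and that of MYB114 without replicate 1, 2 or 3 of the wild type or replicate 1 or 2 of BIC1-YFP (limma's adjusted p then between 0.051 and 0.1). None of the 6 MYB genes on the list for glucosinolates and none of the 17 epidermal cell fate genes was among the listed genes.

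The remaining 4 MYB-like genes have no symbol in the annotation. AT5G56840 fell from 90.3, 84.9 and 59.3 to 31.0, 31.9 and 26.7 units, 2.62-fold lower (-1.34 ± 0.25 SE on the log2 scale, limma's adjusted p 0.0085), and was called without any 1 library (limma, adjusted p up to 0.031). The 3 BIC1-YFP libraries of this gene lay close together and below all the wild-type libraries. AT3G25790 fell from 194, 306 and 395 to 163, 172 and 156, with a wide spread in the wild type and a narrow one in BIC1-YFP (limma, adjusted p = 0.034). AT5G05090 rose from 26.1, 56.6 and 30.0 to 67.1, 74.6 and 83.1 (limma, adjusted p = 0.026). AT2G35640, at 20.1, 44.5 and 38.2 in the wild type against 12.0, 17.3 and 23.1 in BIC1-YFP, did not pass (limma, adjusted p = 0.068). Without replicate 2 or 3 of the wild type or replicate 1, 2 or 3 of BIC1-YFP the call of AT3G25790 was lost (limma's adjusted p then between 0.065 and 0.085), and without replicate 1 or 3 of the wild type or replicate 2 or 3 of BIC1-YFP that of AT5G05090 (limma's adjusted p then between 0.051 and 0.071).

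Of the 4 homeobox genes, 3 rose and 1 did not pass, beside 37.6% of all tested genes that rose. HB52 (AT5G53980), a class I HD-Zip protein known from light-dependent seedling growth, was at 60.2, 92.3 and 99.0 units in the wild type and at 148, 175 and 169 in BIC1-YFP. The genotypes stood clearly apart, with a 1.95-fold higher mean (0.99 ± 0.24 SE on the log2 scale, limma's adjusted p 0.017), and the call was lost without replicate 2 of BIC1-YFP (limma's adjusted p then 0.054). HB28 (AT3G50890) and HB30 (AT5G15210) are zinc finger homeodomain proteins. HB28 went from 50.2, 83.6 and 54.1 to 102, 114 and 95.4 and HB30 from 432, 312 and 403 to 539, 525 and 641 (limma, adjusted p = 0.033 and 0.030). HB28 was no longer called without replicate 1 or 3 of the wild type or replicate 1, 2 or 3 of BIC1-YFP (limma's adjusted p then between 0.061 and 0.092) and HB30 without replicate 2 of the wild type or replicate 1, 2 or 3 of BIC1-YFP (limma's adjusted p then between 0.052 and 0.091). HB40 (AT4G36740), a class I HD-Zip protein that acts downstream of BRC1 in buds, was at 38.1, 61.6 and 41.7 in the wild type against 27.0, 35.8 and 15.7 in BIC1-YFP. Its genotypes did not overlap, by 2.32 units at the nearest, but it did not pass (limma, adjusted p = 0.061). HB52 and HB40 were the genes in the table from 16 class I HD-Zip genes, and none of 10 class II HD-Zip genes was listed.

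The 3 MADS genes stood at 21.0 units or less in every library. SHP1 (AT3G58780), which shapes the fruit margin, was at 7.03, 1.56 and 6.74 units in the wild type and at 21.0, 13.8 and 20.6 in BIC1-YFP (1.82 ± 0.53 SE on the log2 scale, limma's adjusted p 0.023). AGL6 (AT2G45650), a floral MADS gene, was at 2.01, 1.67 and 2.30 in the wild type against 11.0, 6.47 and 7.60 in BIC1-YFP (1.62 ± 0.41 SE on the log2 scale, limma's adjusted p 0.018). Both rose without overlap, by 3.62-fold and 4.19-fold. AT5G27810, a MADS gene without a symbol, went the other way, from 5.02, 9.20 and 7.57 to 2.00, 0 and 3.34 (limma, adjusted p = 0.040). The calls were lost without replicate 1, 2 or 3 of BIC1-YFP for SHP1 (limma's adjusted p then between 0.054 and 0.061), without replicate 2 of the wild type or replicate 1 of BIC1-YFP for AGL6 (limma's adjusted p then between 0.052 and 0.053) and without replicate 1, 2 or 3 of the wild type or replicate 1 or 2 of BIC1-YFP for AT5G27810 (limma's adjusted p then between 0.061 and 0.12). None of 6 flower marker genes, AP1, AG, SEP3, AP3, PI and SEP2, was among the listed genes. The MADS genes SEP1 and FLC match the description rule but are neither in the set nor among those markers. SEP1 (AT5G15800), a floral organ gene, fell from 26.1, 42.0 and 30.5 to 5.01, 9.92 and 4.68 units (-2.21 ± 0.38 SE on the log2 scale, limma's adjusted p 0.0066), against the direction of SHP1 and AGL6, and kept its call without any 1 library. FLC (AT5G10140), a repressor of flowering, rose from a mean of 75.5 ± 17.9 to 147 ± 14.4 units (SD, n = 3; 0.97 ± 0.23 SE on the log2 scale, limma's adjusted p 0.016), a call lost without replicate 2 of BIC1-YFP (limma's adjusted p then 0.050).

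Both SPL genes had lower means. SPL4 (AT1G53160), a promoter of flowering that microRNA miR156 represses, was at 41.1, 54.0 and 103 units in the wild type and at 28.0, 31.0 and 31.0 in BIC1-YFP. The wild-type libraries spread widely and the BIC1-YFP libraries were nearly level, with no overlap (-1.01 ± 0.36 SE on the log2 scale, limma's adjusted p 0.037). The call did not survive without replicate 2 or 3 of the wild type or replicate 1, 2 or 3 of BIC1-YFP (limma's adjusted p then between 0.065 and 0.083). SPL15 (AT3G57920), another miR156 target that promotes flowering, was at 67.2, 48.8 and 22.2 in the wild type against 28.0, 24.6 and 26.5 in BIC1-YFP. Wild-type replicate 3 was the lowest of its 6 libraries, and the gene did not pass (limma, adjusted p = 0.17; 0.022 without that library). Of 17 SPL genes these and SPL3, which is not in the set and rose from 18.1, 33.0 and 40.8 to 65.1, 71.8 and 94.9 units, were in the table. SPL3 was no longer called without replicate 2 of BIC1-YFP (limma's adjusted p then 0.051).

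Of 4 bZIP genes, 1 rose, 1 fell and 2 did not pass. bZIP6 (AT2G22850) was at 14.1, 20.4 and 28.7 units in the wild type against 37.0, 54.5 and 53.4 in BIC1-YFP, 2.30-fold higher (1.20 ± 0.33 SE on the log2 scale, limma's adjusted p 0.022). bZIP5 (AT3G49760) was at 38.1, 46.2 and 31.8 in the wild type against 22.0, 20.1 and 16.7 in BIC1-YFP, 1.98-fold lower (-0.94 ± 0.27 SE on the log2 scale, limma's adjusted p 0.023). Neither overlapped, and both were no longer called without replicate 1 or 2 of the wild type or replicate 2 or 3 of BIC1-YFP (limma's adjusted p then between 0.051 and 0.068). bZIP1 (AT5G49450), a factor of the response to low sugar and energy, was spread widely, at 187, 274 and 733 in the wild type and 423, 778 and 1374 in BIC1-YFP. Replicate 3 was the highest library of each genotype. It did not pass (limma, adjusted p = 0.091; 0.024 without wild-type replicate 3). BZIP61 (AT3G58120), at 381, 349 and 647 in the wild type against 601, 560.3 and 939 in BIC1-YFP, did not pass either (limma, adjusted p = 0.088; 0.027 without wild-type replicate 3). Of 6 light-related bZIP and GATA genes on a list, among them HY5 and HYH, none was in the table, and none of 11 iron-response bHLH genes.

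AT4G16141, described as a GATA zinc finger gene and named GATA17L in the annotation's synonyms, rose from 634, 755 and 743 to 945, 1129 and 1072 units (0.56 ± 0.15 SE on the log2 scale, limma's adjusted p 0.021). Its genotypes did not overlap, and its fold of 1.48 was among the smallest of the set. PLIM2a (AT2G45800), which bundles actin, fell from 65.2, 47.7 and 42.8 to 27.0, 30.2 and 28.7 (-0.81 ± 0.25 SE on the log2 scale, limma's adjusted p 0.026). The call of AT4G16141 was lost without replicate 1 of the wild type or replicate 2 of BIC1-YFP (limma's adjusted p then between 0.057 and 0.069) and that of PLIM2a without replicate 1 or 2 of the wild type or replicate 1, 2 or 3 of BIC1-YFP (limma's adjusted p then between 0.057 and 0.078).

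Over the whole set, calls depended on single libraries, as they did over all listed genes. A lost call need not mean a changed size. RVE1 was at 0.87 on the log2 scale with all libraries, at 0.87 without BIC1-YFP replicate 2 and at 0.62 without wild-type replicate 1. Of the 37 called regulators, 7 were called without any 1 of the 6 libraries: LUX, RVE7, BBX28, AT1G10585 and AT5G51790, which rose, and MYB11 and AT5G56840, which fell. A further 2, TCP1 and TCP12, kept their calls in the settings in which they were tested, and 28 lost theirs without at least 1 library. The number that rose was 13, 13 and 22 when wild-type replicate 1, 2 or 3 was left out, and 16, 6 and 10 when BIC1-YFP replicate 1, 2 or 3 was. In the same order, 5, 2 and 11 fell without a wild-type library, and 6, 4 and 7 without a BIC1-YFP library. Of all listed genes, 575 rose with all libraries, and in that order 303, 313, 621, 489, 193 and 327. The number that fell was 598 with all libraries, and then 312, 294, 598, 473, 248 and 383. How many of all listed genes kept their call without any 1 library was not counted. No regulator changed direction in any of these settings in which it was tested. For the 37 regulators whose genotypes did not overlap, a set not identical to the 37 called, leaving out 1 library could not reverse it.

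**Figure D5:**
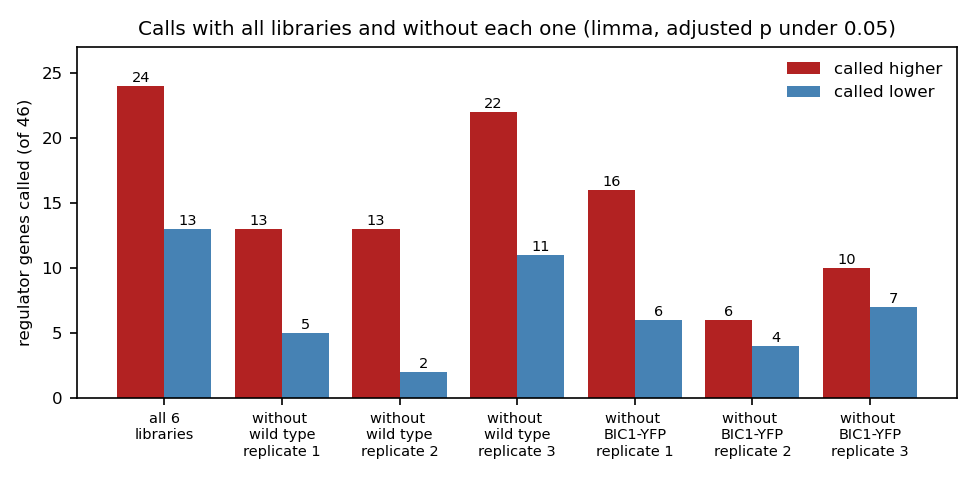
Number of the 46 regulator genes called higher (red) and lower (blue) in BIC1-YFP (y axis) with all 6 libraries and without each library in turn (x axis). The counts are 24 and 13 with all libraries and are lowest without BIC1-YFP replicate 2 for genes called higher (6) and without wild-type replicate 2 for genes called lower (2).

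Values of the libraries and of marker genes stand beside these results. Wild-type replicate 3 was the wild-type library closest to the BIC1-YFP mean for 25 of the 46 regulators (54.3%) and for 55.2% of all genes in the table. Of 6 root epidermis markers, PRP3 and LRX1 were in the table, and both fell. Their summed level was 248 to 429 units in the wild type and 164 to 201 in BIC1-YFP. Both calls were lost without replicate 1 or 2 of the wild type or replicate 2 or 3 of BIC1-YFP (limma's adjusted p then between 0.056 and 0.092). Of 8 seed markers, CRA1 was in the table, at 2.02, 6.94 and 0.219 units in the wild type and 2.01, 83.6 and 5.74 in BIC1-YFP. The genotypes overlapped and it did not pass (limma, adjusted p = 0.18). Counts without wild-type replicate 3 are given above, and the part of the marker genes in the results was not tested. The annotated spans of 17 of the 46 genes overlap another gene, 15 of them on the other strand, and whether counting used the strand was not found in the labels or the design text. LUX, BOA, RVE1, BBX24, MYB11, TCP12 and AT5G51790 are among those 15, so reads of the partner gene may be included in their values. AT1G10585 and BBX32 overlap a protein-coding gene on the same strand (AT1G10580 and AT3G21140), which counting by strand would not separate.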

How the data were processed

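RNA of whole seedlings was read on the Illumina HiSeq platform (labels' protocols). Per the series' design text, reads were trimmed and mapped to TAIR10 and expression values came from Cufflinks; the aligner, the scaling between libraries and the p-value test were left unstated. The authors deposited a normalized signal of read abundance per gene and library for 1537 selected genes, with a log2 fold change and p-values. For 644 of these genes the deposited log2 fold change is smaller in size than the log2 ratio of their mean abundances, and for the others it is not. Sizes given here come from the abundances unless called deposited. The largest deposited adjusted p is 0.0499. Read depth is unknown. Between 6.09% and 100% of the values under 15 lie within 0.05 of a whole number, depending on the library, so whole reads could not be recovered and no count test was used; the planned design had assumed FPKM or counts. Genes at 1 unit or more in at least 3 of the 6 libraries were kept (1531). BIC1-YFP and wild type were compared on log2(value + 1), a scale that understates changes of low genes, by limma 3.58.1 (R 4.3.3, variance trend, no covariate, Benjamini-Hochberg adjustment over all tested genes). Folds are ratios of mean abundance, given where both means reach 0.5. The procedure was tested on simulated data.

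The members and the lists (B-box, SPL, clock MYB, iron bHLH, epidermal, HD-Zip I and II, glucosinolate MYB, growth bHLH, light bZIP and GATA, TCP, brassinosteroid core, and root, flower and seed markers) were chosen with earlier results of these data known. Values per library were planned for members on a list and for called members without overlap whose higher mean reached 10, up to 15 in each direction. Other members were planned by count and range, with names in families of 5 or fewer. BHLH92, HEC1, SPCH, MYB16 and MYB114 fall outside this rule and were added after their values were seen, so that every member is accounted for. Library values of AGL6, AT5G27810, AT2G35640, bZIP1, BZIP61, HB30 and AT4G16141, of families of 5 or fewer, also go beyond the plan. Alternatives covered the pseudocount, filter, scaling, variance trend, replicate block, adjustment and each library left out. Upstream windows were read from the RefSeq TAIR10.1 genome, in which all 46 members were matched.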

Additional observations from a re-analysis of the deposited data

How the results depend on the processing

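No regulator changed direction in those of the 16 other settings tried in which it had a value. Of the 46, 39 had one at a mean of at least 10, 43 with both libraries numbered 3 left out, 44 or 45 with 1 library left out, and all 46 in the others. The filters, the variance trend, the replicate block and the number of tests leave the fold change itself as it was. For the 37 regulators without overlap, neither a pseudocount nor a left-out library could reverse it. The unchanged direction is therefore no evidence of stability for these. The 24 regulators called higher and 13 called lower, and the 575 and 598 of all listed genes, stayed within 1.5 times under both pseudocounts (0.1 and 5), both filters (none, and a mean of at least 10), median-ratio scaling, limma without trend, omission of both libraries numbered 3, and the deposited adjusted p, which passes every listed gene by the authors' selection and says nothing on stability. These counts hide exchanges: without both libraries numbered 3, 14 regulators lost their call and 6 gained one, and 23 of 43 stayed on their side of the threshold. RVE1 and TCP15 missed the threshold without trend (limma, adjusted p = 0.058 and 0.055), and MYB41 at a mean of at least 10 (0.051). The deposited p-values of the 644 genes described above imply at least 21574 tests. With limma's p-values adjusted over that number, 0 regulators were called higher and 0 lower, against 25 and 25 of all listed genes (3.27%). Of the 46, 39 have an unadjusted limma p under 0.05. Leaving out 1 library gave 6 to 22 regulators called higher and 2 to 11 lower, and 193 to 621 and 248 to 598 of all listed genes; the cause was not tested. With median-ratio scaling the median shift in log2 fold change was -0.08; TCP15 and HB30 then missed the threshold (limma, adjusted p = 0.083 and 0.055) and HB40 and AT2G35640 passed it (0.049 and 0.044). With the replicate block 28 regulators were called higher and 17 lower, and 751 and 694 of all listed genes; the 8 gained were BBX32, SPCH, HEC1, HB40, CHE, bZIP1, BZIP61 and AT2G35640. For these 8, limma's adjusted p with the block was between 0.0016 (bZIP1) and 0.035 (BBX32). Deviations from the genotype means correlated across genes at 0.42, 0.04 and 0.44 for replicates 1, 2 and 3. Wild-type replicate 1 with BIC1-YFP replicate 3 gave -0.43, and wild-type replicate 3 with BIC1-YFP replicate 1 gave -0.40. BIC1-YFP replicate 2 correlated more with wild-type replicate 1 (0.09) than with its own number. The labels do not say that a number marks a shared batch, so the block was kept as an alternative. Whether the numbers pair the samples was not tested. Low values limit the precision: with a pseudocount of 0.1 MYB114 and AT5G27810 missed the threshold (limma, adjusted p = 0.057 and 0.075), and with 5 BHLH92 did (0.074).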
